A study of Mus musculus with 24 samples.

Results

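The loss of miR-155 was compared between mouse dendritic cells and macrophages, as the difference of the knockout effects: KO minus wild type (WT) in dendritic cells, less KO minus WT in macrophages. The contrast used 12 of the 24 libraries of the series, 3 in each of 4 groups chosen by cell type and genotype, and covered the 11590 genes expressed in either cell type. All mice were C57BL/6J, either miR-155 KO or wild type. The dendritic cells were CD11c+ spleen cells, enriched with microbeads from mice of both genotypes that had carried a B16 melanoma making Flt3 ligand, and were cultured with LPS at 100 ng/ml and GM-CSF at 20 ng/ml. The macrophages were drawn from the peritoneum after thioglycollate and were cultured with LPS at 100 ng/ml. Cell type therefore went together with organ, tumour, GM-CSF and purification, and these cannot be told apart in the contrast. The duration of culture is not given in the sources used here. By its title the series asks whether miR-155 acts on genes differently in different immune cells, and the contrast puts that question to a pair of myeloid cells.

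MicroRNAs guide Argonaute proteins to messenger RNAs that pair with the seed, the bases near the 5′ end of the microRNA, and lower the level or the translation of those messengers. miR-155 is induced by Toll-like receptor signals in both macrophages and dendritic cells, where it is known for acting on regulators of inflammation, phosphoinositide signalling and lineage. In its absence a direct target is relieved, and genes downstream of the targets can move either way.

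The mature microRNA is shown first because its seed (bases 2 to 8, in capitals) defines the sites. It lies at chr16:84714143-84714165 on the plus strand of GRCm38.p6, per RefSeq.
mmu-miR-155-5p: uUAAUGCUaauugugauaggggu
The sites below (capitals, in messenger sense) come from the 3′ UTRs of genes that took different courses in the contrast. They lie at chr5:32492334-32492341 (plus strand) for Ppp1cb, chr2:31520469-31520476 (plus) for Ass1, chr10:78078959-78078965 (plus) for Icosl, chr13:44920093-44920100 (plus) for Jarid2, which has another 8mer at chr13:44920866-44920873, and chr7:90208432-90208438 (plus) for Picalm, which has further sites. Coordinates are those of GRCm38.
Ppp1cb 8mer, higher in dendritic cells: tttttttttaagggttAGCATTAAca
Ass1 8mer, up in both and more so in dendritic cells: agctctcccaggcttcAGCATTAAtt
Icosl 7mer-m8, opposite in the 2 cell types: gtccttcccgagtacaaAGCATTAcc
Jarid2 8mer, up in macrophages: gaactgattttgttttAGCATTAAac
Picalm 7mer-m8, up in both: cactacatttaaaactcAGCATTAgt

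Gene counts ran from 7428821 to 8281861 per dendritic cell library and from 11479765 to 14219823 per macrophage library. The 12 conventional dendritic cell markers summed to 13607 to 14221 CPM (read counts scaled to library size) in KO and 10465 to 11133 in WT dendritic cells. In macrophages the sums were 442 to 503 and 323 to 425. Flt3 among them stood at 1384 CPM in KO and 1308 in WT dendritic cells, against 0.257 and 0.349 in macrophages. Not all members followed. Itgax, the CD11c gene, was lower in dendritic cells (25.5 and 27.6) than in macrophages (347 and 228), and Xcr1 and Cd209a were low in both. The macrophage and monocyte markers summed to 26363 to 39627 CPM in macrophages against 92.7 to 338 in dendritic cells. The level of miR-155 itself was not analysed here, so the genotype labels were not checked on the targeted gene. The WT macrophage libraries stood apart from the other groups in their spread. The median SD of log2 CPM over genes was 0.243 in that group, 0.118 in KO macrophages, 0.111 in KO and 0.167 in WT dendritic cells. Leaving out WT macrophage replicate 3 raised the counts of calls over all genes, and the values without it are given beside the results that moved by over 1.5 times. Same-numbered macrophage libraries also deviated from their group means together (r of 0.14, 0.26 and 0.34), which dendritic cell libraries did not (0, 0.09 and -0.07). Where a fit with the replicate number as a block changed a call of a gene described below, its blocked adjusted p is given beside the gene or here. In macrophages the KO effects of Bnip3, Maf and Art2a-ps gained a call (edgeR blocked adjusted p = 0.037, 0.048 and 0.048). In dendritic cells those of Tirap, Cebpb and Fscn1 did (edgeR blocked adjusted p = 0.042, 0.041 and 0.028). The difference of Ccr7 was also called only with the block (edgeR blocked adjusted p = 0.041). The 3 libraries of a group are described as sequencing replicates, with no mention of separate animals, so p-values reflect library spread that may be technical.

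The KO effect differed between the 2 cell types for 398 genes, which was 3.43% of those tested (edgeR, adjusted p under 0.05, hereafter called). The effect was higher in dendritic cells for 230 genes (1.98%) and lower for 168 (1.45%). Counts of list members called in the contrast are to be read beside these shares. The median absolute difference was 0.98 on the log2 scale among called genes, which were chosen partly by size, and 0.26 over all genes, with a median standard error (SE) of 0.24. For all 398 the KO-minus-WT library pairs of one cell type did not overlap those of the other, a property of 12.7% of all genes tested (6.62% higher and 6.12% lower). Without WT macrophage replicate 3 the count was 1346, made up of 707 higher and 639 lower, and 395 of the 398 were among them. With the replicate block 127 of the 398 were not called. Of the 398, 94 were called in each of the 12 fits that left out 1 library.

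In the same fit, 1408 genes changed with KO in dendritic cells (12.1%), 745 up (6.43%) and 663 down (5.72%), and 739 changed in macrophages (6.38%), 385 up (3.32%) and 354 down (3.05%). The macrophage count moved most with the treatment of the spread: it was 95 when the macrophage libraries were fitted alone, 392 with limma voom and 2974 without WT replicate 3. The dendritic cell count fitted alone was 2279. Slc7a5, Stat4, Asns, Inpp5d, Ifngr2, Tmem176b and Il15, described below, were called in dendritic cells fitted alone but not in the fit of all 12 libraries. Their edgeR adjusted p fitted alone were 0.0079, 0.0023, 0.016, 0.032, 0.014, 0.037 and 0.038. In macrophages, calls of genes described below were lost when fitted alone. Among them were Bach1, Tab2, Jarid2, Ass1, Uap1, Peli2, Shmt2, Stat4, Itgb7, Lpcat1, Il15, Rps6ka5 and Sesn1. Their edgeR adjusted p in macrophages fitted alone ran from 0.051 (Peli2) to 0.15 (Itgb7). Across 7819 genes with a mean of at least 5 CPM in both cell types, the 2 KO effects had a Pearson r of 0.25 and a Spearman rho of 0.28, given as a description over genes, which are not independent.

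**Figure D1:**
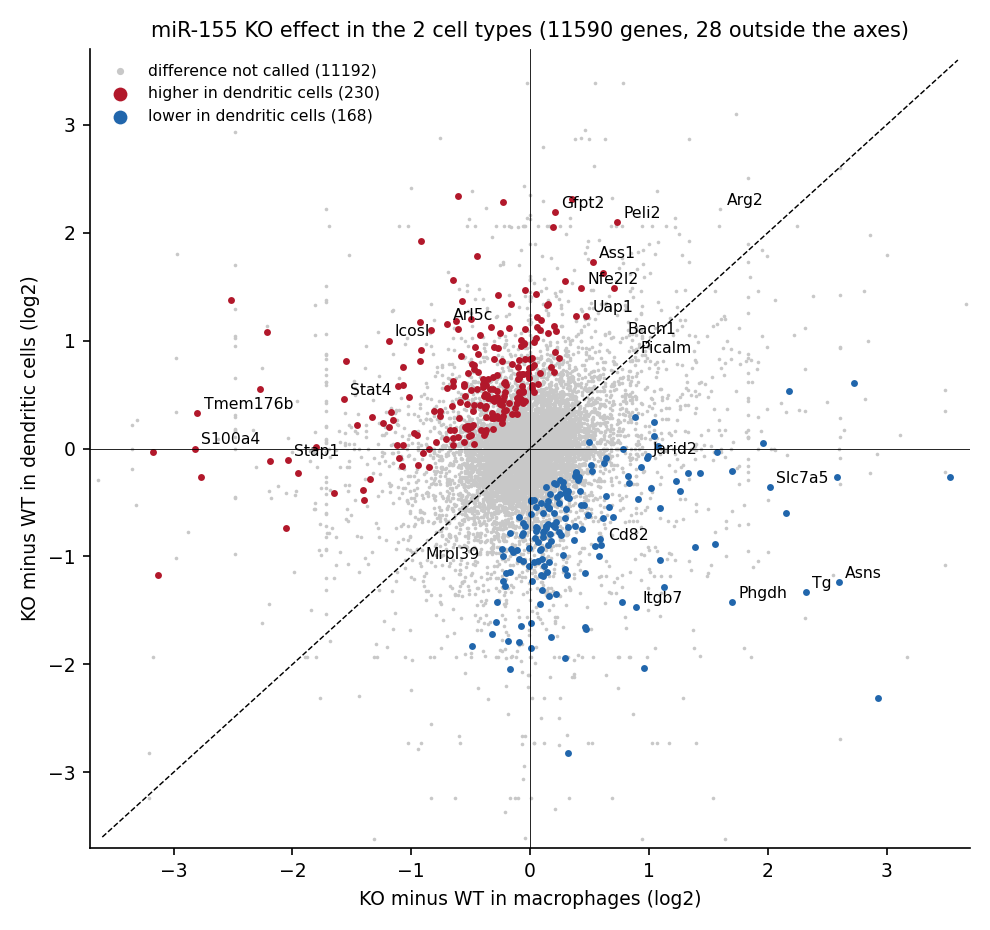
KO-minus-WT log2 effect in macrophages (x axis) against dendritic cells (y axis) for each of the 11590 genes, 28 of which lie outside the axes. Red and blue points are the 230 and 168 genes whose effects differed, and the dashed line marks equal effects. Most coloured points lie in the upper left and lower right quadrants, where the 2 effects have opposite signs.

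Fitted effects of opposite sign held for 177 of the 230 higher genes and 130 of the 168 lower genes, together 77.1%, against 39.9% of all genes tested. A large difference favours opposite signs by construction, and for most of these genes one of the effects was not called. Among the 230, 128 were called in dendritic cells alone, 65 in macrophages alone, 22 in both and 15 in neither. Among the 168 these counts were 111, 40, 10 and 7. The lower genes leaned to genes of macrophages: in 46 of the 168 (27.4%) the WT macrophage level was over 4 times the WT dendritic cell level, against 13.3% of all genes. The higher genes leaned to genes of dendritic cells, with 54 of 230 (23.5%) over 4 times higher in WT dendritic cells, against 9.7% of all genes.

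Genes called in both cell types numbered 172, and 148 of them moved the same way, 84 up and 64 down. Of these 148, 8 also differed in size. Picalm, a clathrin assembly protein with several miR-155 sites, stood at 216, 196 and 189 CPM in KO and 109, 109 and 115 in WT dendritic cells. In macrophages it stood at 964, 857 and 953 against 509, 500 and 496. Every KO library was above every WT library on both sides, and the effects of 0.85 and 0.88 differed by -0.03 (95% interval -0.33 to 0.27). Bach1, a repressor of haem and antioxidant genes, rose by 1.02 ± 0.14 and 0.77 ± 0.14 (SE), and Tab2, an adaptor of the TAK1 kinase, by 0.53 and 0.56. Txnrd1, a thioredoxin reductase, rose by 0.91 and 0.87, and Cbfb, a partner of RUNX factors, by 0.79 and 0.56. Among genes that fell in both were Rasal3, a Ras GTPase-activating protein, at -0.77 and -0.79, and Abcc3, an exporter of conjugates, at -1.01 and -1.39. The intervals of these differences reach 0.80 for Abcc3 and 0.67 for Bach1, so the data do not show equal effects. Without WT macrophage replicate 3 the difference of Abcc3 was called (0.53, edgeR adjusted p = 0.037).

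Opposite changes were called in both cell types for 24 genes (0.207%), 15 up and 9 down in dendritic cells. In each of the 24 the KO and WT libraries did not overlap in either cell type, which held for 39.3% of all genes in dendritic cells and 23.7% in macrophages. Arl5c, an ARF-like GTPase, had the smallest p: 145, 144 and 147 CPM in KO and 64.7, 65.5 and 65.8 in WT dendritic cells, against 36.4, 39.8 and 36.6 in KO and 61.9, 65.2 and 55.6 in WT macrophages. The WT levels of the 2 cell types were alike, and KO moved them apart, by 1.15 ± 0.08 up and 0.70 ± 0.08 down on the log2 scale (difference 1.85 ± 0.12, edgeR adjusted p = 1.4e-05).

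Icosl, the ligand of the T cell costimulator ICOS, stood at 58.4, 59.1 and 57.7 CPM in KO and 29.1, 32.9 and 25.7 in WT dendritic cells. In macrophages it was near the lower end of detection, at 1.26, 1.55 and 1.15 in KO and 2.52, 2.62 and 4 in WT. The difference was 2.19 ± 0.26 (edgeR adjusted p = 0.0015). Ticam2, the TRAM adaptor that couples TLR4 to TRIF, went from 2.84 to 6.42 CPM in dendritic cells and from 26.4 to 17.2 in macrophages (WT to KO means), a difference of 1.79 ± 0.20. Rcsd1, an actin capping protein partner, Mtmr4, a phosphoinositide phosphatase, and Palm, a membrane-bound paralemmin, had the same pattern with differences of 1.43, 1.26 and 1.83.

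The reverse pattern, down in dendritic cells and up in macrophages, held for Cd82, Zadh2, Phgdh and Tg, among others. Cd82, a tetraspanin, stood at 10.5, 10 and 9.25 CPM in KO and 19.1, 16.4 and 20 in WT dendritic cells, and at 125, 120 and 111 against 83.2, 75.1 and 76 in macrophages. The difference was -1.50 ± 0.14 (edgeR adjusted p = 0.00063). Zadh2, an oxidoreductase, differed by -1.25 ± 0.15. Tg (thyroglobulin) was under 1 CPM in every macrophage library and is weakly compared. For the other 9 genes of this and the previous paragraphs, edgeR adjusted p in macrophages fitted alone ran from 0.041 to 0.11, and those of Arl5c, Cd82 and Phgdh were under the threshold. Without WT macrophage replicate 3 the count of opposite genes was 150, and without KO macrophage replicate 2 it was 8.

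**Figure D2:**
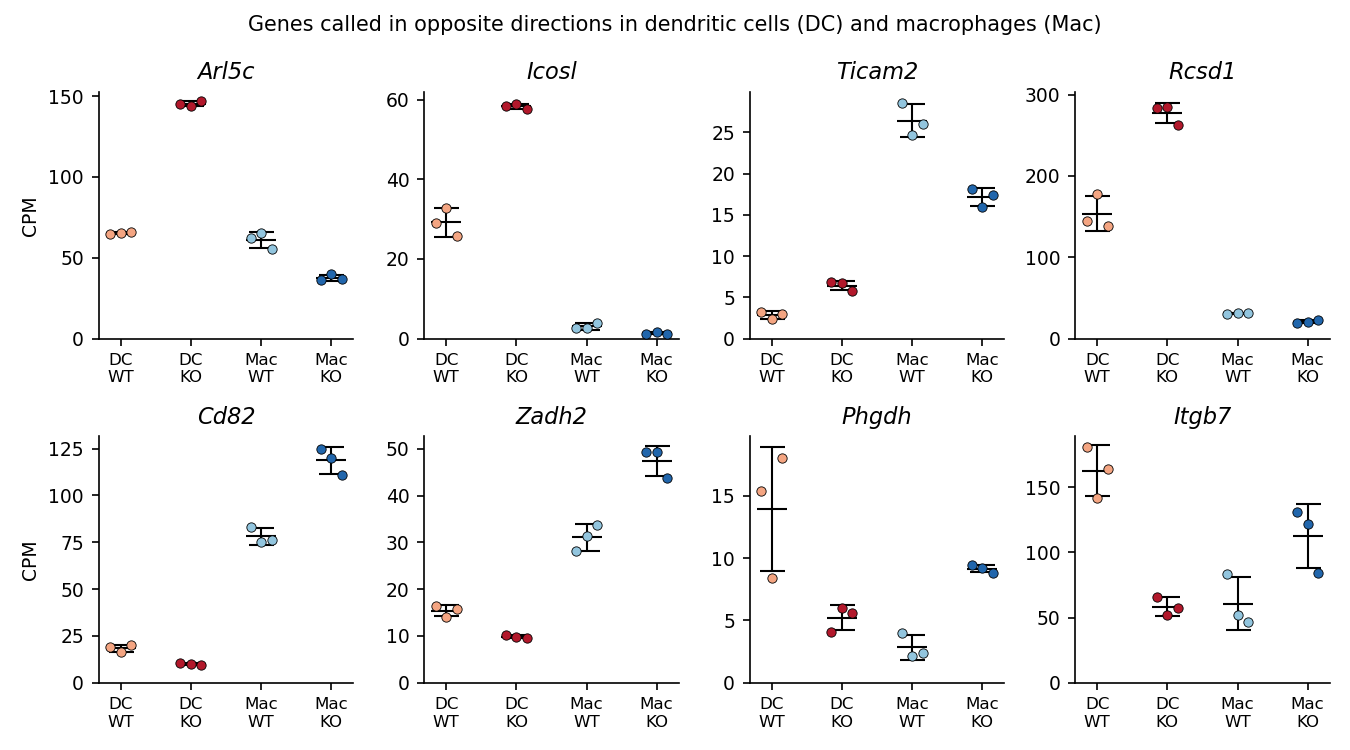
CPM in each library (points), with the mean and SD of 3 libraries (bars), for 8 genes in WT and KO dendritic cells (DC) and macrophages (Mac). The upper 4 genes were higher in KO than WT in dendritic cells and lower in macrophages, and the lower 4 the reverse; no KO library overlapped a WT library within a cell type.

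Stress response and amino acid supply genes were the list with the largest share called lower in the contrast. Of 30 tested members 8 were lower and 0 higher (26.7% lower against 1.45% of all genes), and the median difference was -0.68 against 0.002 over all genes. Calls by cell type were 12 up and 0 down in macrophages and 2 up and 3 down in dendritic cells. Asns, which makes asparagine, stood at 63.9, 46.5 and 27.6 CPM in KO and 5.84, 7.04 and 9.87 in WT macrophages. In dendritic cells it was 1.16, 1.07 and 1 in KO against 1.97, 3.18 and 2.53 in WT. The macrophage libraries were far apart by genotype and the dendritic cell libraries were low in both, with a difference of -3.83 ± 0.54 (edgeR adjusted p = 0.0037).

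Phgdh, the first enzyme of serine synthesis, was up in every KO macrophage library (9.4, 9.22 and 8.82 CPM against 3.95, 2.13 and 2.4) and down in dendritic cells (4.05, 5.97 and 5.62 against 15.4, 8.37 and 18). Its difference was -3.11 ± 0.41. Shmt2, the mitochondrial enzyme that makes glycine from serine, rose by 0.64 in macrophages and fell by 0.44 in dendritic cells (blocked adjusted p = 0.057 for the fall, edgeR). A pair of transporters rose in macrophages and were not called in dendritic cells in the fit of all 12 libraries. Every KO library of Slc7a5 was nonetheless below every WT library in dendritic cells, and its fall was called there when fitted alone. Slc7a5, which carries large neutral amino acids, stood at 14.4 CPM in KO and 3.56 in WT macrophages, against 49 and 63.1 in dendritic cells, and Slc7a11, which imports cystine, at 586 and 218 against 37.6 and 44.1. Their differences were -2.38 ± 0.30 and -1.66 ± 0.26. The glutamine transporter Slc1a5 (-0.68) and the tRNA synthetases Eprs (-0.73) and Cars (-0.81, edgeR blocked adjusted p = 0.068) were the other members called.

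Members tied to translation control did not all follow. Ppp1r15a, the phosphatase subunit that ends the stress response, rose in both cell types (0.50 and 0.68), and Wars rose in dendritic cells (0.56). Atf4 and Ddit3 were not called in either. Atf4 was near the threshold in macrophages (edgeR adjusted p = 0.057). With the replicate block its macrophage effect was 0.52 and its difference -0.52, the direction of the list. Ddit3 was not near it (edgeR adjusted p = 0.89 in macrophages, blocked effect -0.05). Leaving out WT macrophage replicate 3 gave 16 members lower with a median of -0.76, and the fewest, 5, were called when other single libraries were left out. Stromal and mesothelial markers in macrophages, with Col1a1, Col3a1 and Dcn among them, summed to 277, 216 and 519 CPM in KO and 145, 90.9 and 250 in WT, with overlap between the groups. Their part in the macrophage values was not tested.

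Glycolysis and hypoxia genes leaned the other way. Of 28 tested, 5 were higher in the contrast and 0 lower (17.9% against 1.98% of all genes), 24 of 28 fitted differences were above 0, and the median was 0.51. Calls by cell type were 6 up and 2 down in dendritic cells and 0 up and 2 down in macrophages. Pfkl, a phosphofructokinase, stood at 87.6 CPM in KO and 45.5 in WT dendritic cells, against 673 and 828 in macrophages, a difference of 1.24 (edgeR adjusted p = 0.045). Bnip3, a mitophagy receptor induced by hypoxia, stood at 14.9, 7.52 and 10.6 CPM in KO and 6.84, 4.45 and 6.7 in WT dendritic cells, and at 103, 94.5 and 101 against 142, 145 and 119 in macrophages. Its difference was 1.32 ± 0.29. Slc16a3, which exports lactate, differed by 1.02 ± 0.25, although it was called in neither cell type by itself (edgeR blocked adjusted p = 0.043 in macrophages). Mif, a cytokine gene with processed copies among which reads can be split, differed by 1.50 ± 0.33. Ankrd37 differed by 2.95 ± 0.60 but stood at 0.207 to 0.33 CPM in WT dendritic cells, a handful of reads. Among KO dendritic cell libraries, Bnip3, Slc16a3, Mif and Ankrd37 were all highest in replicate 1. Slc16a3 stood at 64.1, 40.1 and 40.5 CPM in these libraries, Mif at 27.8, 13.7 and 12.6 and Ankrd37 at 2.43, 0.836 and 0.625. Without KO dendritic cell replicate 1 the list had 2 members called higher, as it had without replicate 3. These calls were near the threshold: the list had 11 members called higher without WT macrophage replicate 3 and 0 when WT dendritic cell replicate 2 or 3, or KO macrophage replicate 1 or 2, was left out.

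**Figure D3:**
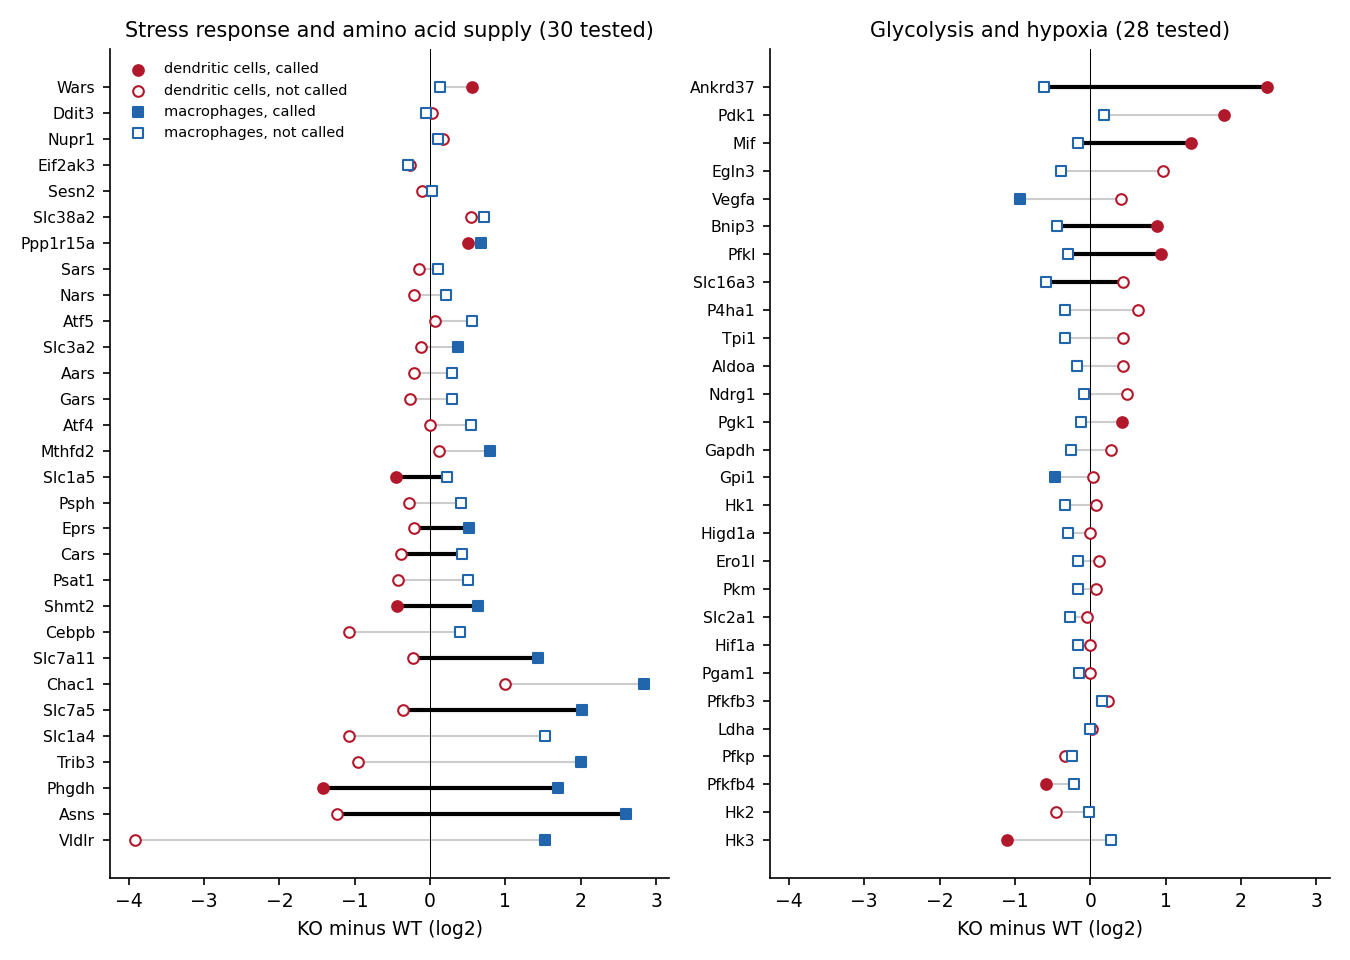
KO-minus-WT log2 effect in dendritic cells (red circles) and macrophages (blue squares) for the tested members of 2 lists, filled where called; a black line joins the 2 effects where their difference was called. Macrophage values lie to the right for most stress response genes, of which 8 of 30 differed, and dendritic cell values lie to the right for most glycolysis genes, of which 5 of 28 differed.

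Gfpt2, Uap1 and Ass1 rose more strongly in dendritic cells than in macrophages. The hexosamine pathway makes the sugar donor for protein glycosylation. Of its 12 members 2 were higher (16.7%, against 1.98% of all genes) and 0 lower (2 and 1 without WT macrophage replicate 3). Gfpt2, which catalyses the first step, stood at 6.36, 7.76 and 8.37 CPM in KO and 1.76, 1.48 and 1.65 in WT dendritic cells, against 2.52, 2.33 and 2.3 in KO and 2.07, 1.72 and 2.4 in WT macrophages (difference 1.98 ± 0.29). Uap1, which makes the donor itself and has an 8mer site, rose in both, from 854 to 2008 CPM and from 43.2 to 59.8 (difference 0.77 ± 0.15). Ass1, which regenerates arginine from citrulline, also rose in both: 282, 267 and 287 CPM in KO and 83.4, 92.9 and 74.8 in WT dendritic cells, 540, 549 and 502 against 419, 313 and 370 in macrophages. The rise was 1.73 in dendritic cells and 0.53 in macrophages (difference 1.20 ± 0.17, edgeR adjusted p = 0.0041). It was the 1 of 16 arginine genes called, the list's median difference was -0.03, and 2 members rose in dendritic cells and 4 in macrophages. The list had 2 higher and 3 lower without WT macrophage replicate 3. Arg2, the mitochondrial arginase, rose by 2.22 and 1.60 and its difference of 0.63 was not called (edgeR adjusted p = 0.25; 0.014 without WT macrophage replicate 3).

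In the oxidative stress and iron list 1 of 25 genes was higher and 1 lower (4% each, against 1.98% and 1.45% of all genes). The counts were 6 and 2 without WT macrophage replicate 3. Nfe2l2, the transcription factor NRF2, has an 8mer site and stood at 179, 167 and 180 CPM in KO and 53.8, 63.8 and 70.2 in WT dendritic cells. In macrophages it was 600, 632 and 646 against 440, 575 and 376, with no overlap in either cell type. The effects were 1.49 ± 0.15 and 0.43 ± 0.15, the latter not called, and their difference was 1.05 ± 0.21 (edgeR adjusted p = 0.022; 7 of 12 fits with a library left out). Slc7a11, counted above, was the lower one. Gclc and Gsr, of glutathione synthesis and recycling, rose in dendritic cells by 0.88 and 0.82, and their differences of 0.69 and 0.48 were not called.

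Among 44 tested genes reported as miR-155 targets, dendritic cells had 15 up (34.1%, against 6.43% of all genes) and 1 down (2.27%, against 5.72%). Macrophages had 12 up (27.3%, against 3.32%) and 0 down. The list was chosen with these data known and is no independent evidence of that direction. In the contrast 1 was higher (Nfe2l2) and 3 were lower, with Jarid2 and Inpp5d among them (2.27% and 6.82%, against 1.98% and 1.45% of all genes), and the median difference was 0.01. These counts were 5 and 5 without WT macrophage replicate 3. Jarid2, a Polycomb partner with a pair of 8mer sites, stood at 125, 100 and 110 CPM in KO and 50.1, 45.6 and 74.5 in WT macrophages. In dendritic cells the groups overlapped, at 56.4, 58.1 and 59.6 against 62.6, 56.9 and 66.1. The effects were 0.98 ± 0.16 and -0.09 ± 0.16, and the difference was -1.07 ± 0.22 (edgeR adjusted p = 0.026; 4 of 12 fits with a library left out). Inpp5d, the phosphatase SHIP1, was 145 in KO and 178 in WT dendritic cells and 343 and 288 in macrophages, and its difference of -0.54 was at the threshold (edgeR adjusted p = 0.047, blocked adjusted p = 0.075). Neither side of it was called in the fit of all 12 libraries.

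The remaining targets fixed for description were not called in the contrast. Spi1, the transcription factor PU.1, rose in dendritic cells by 0.68 ± 0.09 and stood 0.27 ± 0.09 higher in macrophages, uncalled, with a difference of 0.41 (95% interval 0.14 to 0.68, edgeR adjusted p = 0.089, and 0.015 without WT macrophage replicate 3). Peli1, a ubiquitin ligase, differed by 0.58 (edgeR adjusted p = 0.082, and 0.047 without WT macrophage replicate 3). Cebpb, Maf and Socs1 had wide intervals, -2.51 to -0.42, -0.46 to 1.70 and -1.02 to 1.42. That of Cebpb was called with the block (edgeR blocked adjusted p = 0.044). Cebpb and Maf were under 15 CPM in all dendritic cell libraries, and Socs1 ran from 21.6 to 122 CPM in WT macrophages.

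Seed-matched genes, those with an 8mer or 7mer site in the longest 3′ UTR (1590 tested), were compared with 9054 genes without a site. An 8mer reads AGCATTAA, a 7mer-m8 lacks its last base (AGCATTA) and a 7mer-A1 its first (GCATTAA), searched in messenger sense. The median KO effect of seed-matched genes was higher than for genes with none, by 0.165 in dendritic cells and 0.122 in macrophages. The difference of KO effects had a median excess of 0.043, which was 0.004 without WT dendritic cell replicate 1 and -0.007 without WT macrophage replicate 3, so its direction was not stable. By counts, 49 seed-matched genes were higher (3.08%) and 19 lower (1.19%), against 1.81% and 1.55% of genes without a site. For 8mer genes the shares were 3.66% and 1.05%, for 7mer-m8 genes 3.07% and 0.878% and for 7mer-A1 genes 2.67% and 1.71%.

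Seed-matched genes that rose numbered 227 in dendritic cells and 101 in macrophages, and 44 rose in both. These were 43.6% of the macrophage genes and 19.4% of the dendritic cell genes, against 13.3% and 7.5% for genes without a site. Of the 44, 5 differed in the contrast. Ppp1cb, a catalytic subunit of protein phosphatase 1 with an 8mer, had the smallest p among seed-matched genes in the contrast together with Lpcat1 and Icosl. It stood at 153, 153 and 156 CPM in KO and 89, 86.4 and 83.9 in WT dendritic cells, against 106, 98.3 and 99.8 and 104, 106 and 103 in macrophages. The WT levels were close, only the dendritic cell groups were apart, and the difference was 0.88 ± 0.10 (edgeR adjusted p = 0.0015). Ahcyl2, a partner of the IP3 receptor, had the same shape with 119 against 73.7 CPM and 45.5 against 46.6 (difference 0.72 ± 0.11), and Lpcat1, which remodels phosphatidylcholine, went up by 0.77 in dendritic cells and fell by 0.47 in macrophages.

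A site did not go with a rise in every case. Stap1, an adaptor of receptor signalling with a 7mer-A1, stood at 6.98, 9.71 and 6.13 CPM in KO and 27.7, 28.2 and 37.9 in WT macrophages, a fall of 2.04 on the log2 scale. In dendritic cells its groups overlapped, at 16.5, 16.1 and 16 against 20.8, 15.7 and 16.1 (difference 1.92 ± 0.26, edgeR adjusted p = 0.0028). Mctp1, a calcium-binding membrane protein with a pair of 7mer-A1 sites, fell in dendritic cells from 3.19 to 0.876 CPM and stood at 89.2 in KO and 88.6 in WT macrophages.

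**Figure D4:**
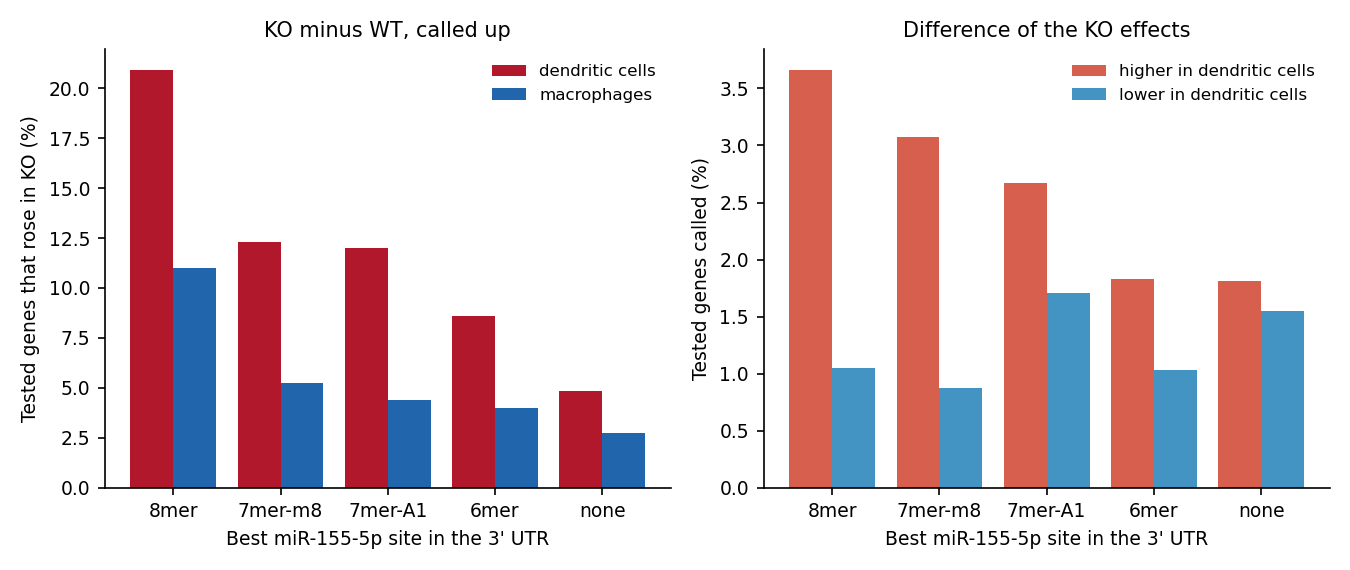
Share of tested genes, by the best miR-155-5p site in the 3′ UTR, that rose in KO in each cell type (left) and that were called higher or lower in the difference of KO effects (right), both in percent from 0. The share that rose is highest for the 8mer in both cell types (20.9% and 11%), and the share called higher in the difference is 3.66% for the 8mer and 1.81% for genes without a site.

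In the Toll-like receptor and NF-kB list 5 of 44 were higher and 2 lower (11.4% and 4.55%), 2 of these 7 being seed-matched. The counts were 6 and 6 without WT macrophage replicate 3. Beside Ticam2, Tlr1 differed by 0.68 (edgeR blocked adjusted p = 0.07) and Tlr9 by 1.72 (edgeR blocked adjusted p = 0.054), both with a fall called in macrophages and no call in dendritic cells. Tnip3, a partner of the NF-kB inhibitor A20 with 8mer sites, stood at 77.6, 73 and 81.5 CPM in KO and 43.3, 44.7 and 34.1 in WT dendritic cells, while in macrophages the groups overlapped at 18, 20.9 and 21.4 against 22.8, 19 and 30.8. Its difference was 1.19 ± 0.23. Peli2, a ubiquitin ligase of the same pathway, rose in both, by 2.10 and 0.73. Myd88, the adaptor of most Toll-like receptors, fell in dendritic cells and was not called in macrophages (difference -0.54 ± 0.12, edgeR blocked adjusted p = 0.069), and Tirap, which brings it to the membrane, was the other lower member (-1.44).

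The cytokine signalling and feedback list had 5 of 40 higher and 0 lower (12.5% and 0%) with a median of 0.07, and 5 and 2 with a median of -0.06 without WT macrophage replicate 3. Stat4, the transcription factor of IL-12 signalling, stood at 2241, 2183 and 2229 CPM in KO and 1665, 1692 and 1467 in WT dendritic cells. This effect of 0.46 was not called in the fit of all 12 libraries but was when fitted alone. In macrophages it stood at 5.33, 4.95 and 7.48 against 11.8, 15.8 and 25.2 and fell by 1.57. The difference was 2.03 ± 0.33 (edgeR adjusted p = 0.0082). The other 4 each have a 7mer site: Sh2b3, an adaptor that restrains cytokine receptors (1.02), Pias1, a SUMO ligase acting on STAT proteins (0.49, edgeR blocked adjusted p = 0.058), Ifngr2, a chain of the interferon gamma receptor (0.58, blocked adjusted p = 0.051), and Il6ra, the IL-6 receptor (0.94). Sh2b3, Pias1 and Il6ra rose in dendritic cells and were not called in macrophages. In the PI3 kinase and mTOR list, Rps6ka5, the kinase MSK1 with an 8mer, rose by 1.49 and 0.71 (edgeR blocked adjusted p = 0.058 for the difference), and it and Inpp5d were the 2 of 30 members called. Without WT macrophage replicate 3, 4 members were higher and 3 lower.

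Costimulatory and chemokine genes differed in a few members. Of 24 dendritic cell maturation genes 2 were higher (8.33%, against 1.98% of all genes) and 0 lower, with a median of 0.41 (4 and 0 without WT macrophage replicate 3). Besides Icosl this was Cd83, a maturation marker, at 736, 725 and 744 CPM in KO and 469, 507 and 477 in WT dendritic cells against 1.15 to 2.87 in macrophages (edgeR adjusted p = 0.04 for the difference, blocked adjusted p = 0.051). Among 31 inflammatory cytokine and chemokine genes 2 were higher and 1 lower, and 4 and 3 without WT macrophage replicate 3, when the median turned from 0.12 to -0.24. Il15, a cytokine presented to T and NK cells, stood at 58.8 and 46.3 CPM in dendritic cells, uncalled, and fell in macrophages from 3.22 to 1.42 (difference 1.52 ± 0.30). Ccl17, a ligand of CCR4, fell in both, from 116 to 51.3 and from 5.45 to 0.612 CPM (WT to KO), and its difference of 1.96 was not called without WT macrophage replicate 3 (edgeR adjusted p = 0.044 and 0.066, blocked adjusted p = 0.057). Tnfsf9, the ligand of 4-1BB, was the lower member: it rose in macrophages from 27.3 to 56.1 CPM and stood at 14.2 and 11.9 in dendritic cells (difference -0.79 ± 0.19, edgeR blocked adjusted p = 0.067). The type I interferon list had 0 of 36 called by edgeR in the contrast, with 31 fitted differences above 0 and a median of 0.36. At an unadjusted p under 0.05, 13 were higher and 0 lower, where 2165 of all 11590 genes passed in either direction. DESeq2 called 8 higher and 0 lower and limma voom called 0. With edgeR, 3 were higher without WT macrophage replicate 3 and 3 with the replicate block.

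Receptors of phagocytes fell in dendritic cells. In the Fc receptor and phagocytosis list dendritic cells had 11 of 31 down (35.5%, against 5.72% of all genes) and 0 up. Macrophages had 1 up (3.23%, against 3.32%) and 5 down (16.1%, against 3.05%). In the contrast 3 were lower (9.68%, against 1.45%) and 0 higher, with a median of -0.71 (5 and 0 without WT macrophage replicate 3, median -0.58). Clec4e, the receptor Mincle, stood at 6.24, 5.97 and 5.12 CPM in KO and 12.2, 9.75 and 49.4 in WT dendritic cells, against 1628, 1535 and 1378 in KO and 805, 620 and 905 in WT macrophages. Its difference was -3.00 ± 0.66, and -1.89 at its smallest with a library left out. It was called in 5 of 12 fits with a library left out and not by limma voom (adjusted p = 0.10). The fall of Clec4e in dendritic cells was not called when fitted alone (edgeR adjusted p = 0.14). Itgb2, the beta chain of the leukocyte integrins, stood at 35.4, 32.6 and 35.6 against 79.2, 72.9 and 125 in dendritic cells and at 2802 and 3407 in macrophages (difference -1.14 ± 0.26). Pira2, an activating receptor of a family of near-identical copies among which reads can be split, stood at 0.116, 0.358 and 0.125 against 9.54, 11.4 and 14.1 in dendritic cells and overlapped in macrophages. The complement genes C1qa, C1qb and C1qc fell in macrophages (606 against 1647, 380 against 1303 and 260 against 1038 CPM), and their differences of 0.30, 0.84 and 0.85 were not called.

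Clec4e and Itgb2 were much higher in macrophages, and other macrophage genes moved with them in dendritic cells. Pira2 was not much higher there, at 11.7 CPM in WT dendritic cells and 16.2 in WT macrophages. The 12 macrophage and monocyte markers summed to 121, 92.7 and 98.7 CPM in KO and 134, 179 and 338 in WT dendritic cells, without overlap and highest in WT replicate 3, where Clec4e and Itgb2 were also highest. The 9 neutrophil markers summed to 2.87 to 3.10 and 4.04 to 17.8. The part of these cells in the dendritic cell values was not tested, and in bulk samples fewer cells of a type and less RNA per cell cannot be told apart. In macrophages the neutrophil sum was 3114 to 3905 CPM in KO and 3114 to 4120 in WT. It came mostly from Mmp8 (means of 2918 in KO and 2908 in WT) and Csf3r (548 and 580). The same genes made up most of the sum in dendritic cells. S100a9, Ly6g, Retnlg, Ltf and Elane had means under 1 CPM in all groups, so the sum is no measure of neutrophil content.

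Among the largest differences, several were falls in macrophages of genes that were abundant in dendritic cells. Tmem176b, a membrane protein of antigen presenting cells, stood at 573, 574 and 614 CPM in KO and 544, 429 and 425 in WT dendritic cells, and at 1.84, 2.72 and 2.88 against 8.35, 26.6 and 16.8 in macrophages (difference 3.13 ± 0.46, edgeR adjusted p = 0.0045). S100a4, a calcium-binding protein, stood at 274, 334 and 353 against 392, 267 and 304 in dendritic cells and at 1.45, 2.72 and 2.97 against 10.9, 21.9 and 17.7 in macrophages (difference 2.82 ± 0.38). Neither gene was called in dendritic cells in the fit of all 12 libraries, although Tmem176b was when fitted alone. The macrophage groups did not overlap. The conventional dendritic cell markers in macrophages summed to 442 to 503 CPM in KO and 323 to 425 in WT, mostly from Itgax and Irf8. Other members went both ways. Ccr7 (1.29 in KO and 3.39 in WT) and Batf3 (0.676 and 1.36) were lower in KO. Zbtb46 (1.64 and 0.851) and Cd24a (12.5 and 5.33) were higher, and Fscn1 (2.99 and 3.59) moved little. The part of dendritic cells in these falls was not tested.

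Itgb7, the beta 7 integrin chain, ran the other way, at 65.9, 51.9 and 57.4 CPM in KO and 181, 142 and 164 in WT dendritic cells, and 131, 122 and 84.5 against 83.6, 52.3 and 46.2 in macrophages (difference -2.36 ± 0.31, edgeR adjusted p = 0.0026). Zdhhc9, a protein palmitoyltransferase, fell in dendritic cells from 9.14 to 2.64 CPM and stood at 46.8 and 49.9 in macrophages (difference -1.69 ± 0.18). Among p53 response and apoptosis genes 4 of 35 were higher and 0 lower (11.4% and 0%), and 7 and 1 without WT macrophage replicate 3. Gadd45a (1.09) and Gadd45b (0.97) were among those that rose in dendritic cells, and Sesn1 (1.07) fell in macrophages.

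Some called differences compared a gene with its near absence. Sgms2, a sphingomyelin synthase, had 0 counts in all KO and 0.318 to 0.989 CPM in WT dendritic cells against 44 to 59.9 in macrophages (edgeR blocked adjusted p = 0.052). Mtss1l and Art2a-ps were under 1 CPM in every macrophage library. No member was called by edgeR in the contrast among 24 MHC and antigen processing, 32 lysosome and lipid, 23 sterol synthesis or 36 cell cycle genes, whose medians were 0.15, -0.15, -0.00 and 0.17. At an unadjusted p under 0.05 these 4 lists had 2, 1, 2 and 6 higher and 2, 3, 1 and 2 lower. Over all genes, 2165 of 11590 passed that threshold in either direction. DESeq2 called 1 higher and 1 lower in the first and 2 lower in the second, and limma voom 1 lower in the second; neither called any in the others. Without WT macrophage replicate 3, the 4 lists had 3, 3, 2 and 1 higher and 2, 2, 0 and 1 lower, and with the replicate block the first had 1 higher and the second 1 lower. Of 6 tested neighbours of Mir155, 0 differed by edgeR, DESeq2 or limma voom, and 0 at an unadjusted p under 0.05. Mrpl39 among them fell in both cell types, by 1.06 ± 0.14 and 0.93 ± 0.13.

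**Figure D5:**
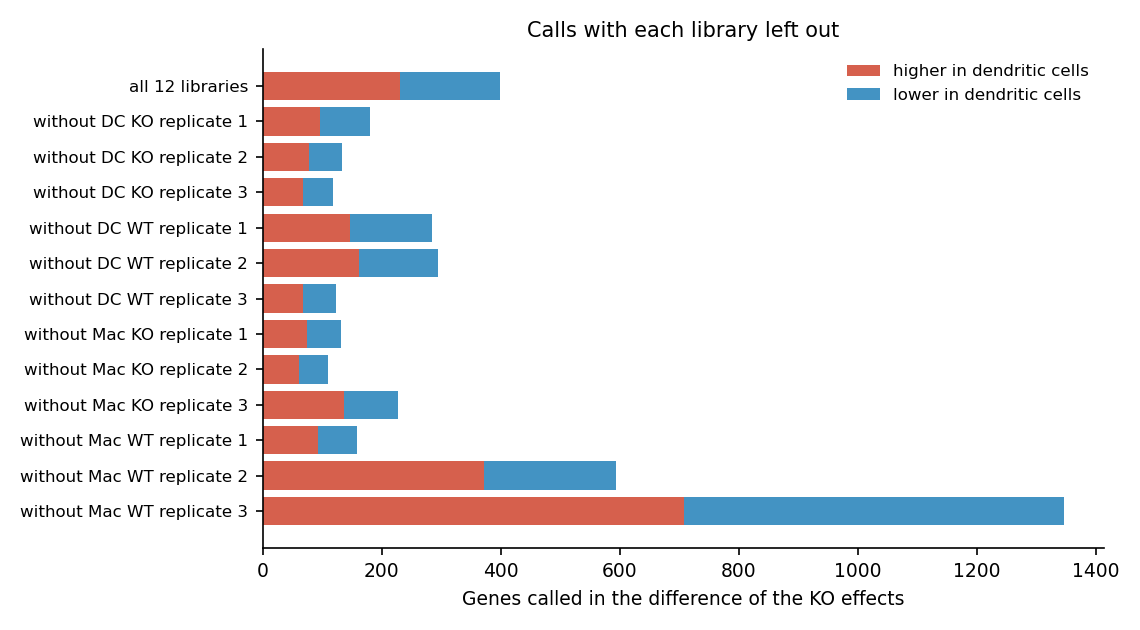
Number of genes called in the difference of KO effects (x axis), split into higher and lower in dendritic cells, with all 12 libraries and with each library left out. The count is 398 with all libraries, lowest without KO macrophage replicate 2 (109) and highest without WT macrophage replicate 3 (1346).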

How the data were processed

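The deposited files hold raw read counts per gene symbol, 1 file per library. Per the submitters' processing notes, cutadapt and STAR were used with the mm9 build; for versions, counting tool, strand and parameters, nothing is given in the sources used here. Rows without a gene name were dropped, of which reads outside counted features made up 51.4 to 61.1% of all counts. Library pairs were compared before averaging and all differed by more than counting noise.

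Groups were taken from sample titles. edgeR 4.0.16 in R 4.3.3 fitted the 12 libraries with 4 group means (TMM, filterByExpr, robust glmQLFit, glmQLFTest, two-sided). One dispersion per gene served both cell types. Calls were made at 0.05 after Benjamini-Hochberg adjustment over the 11590 genes. Log2 values are KO minus WT or their difference, and SE is the absolute log2 value over the square root of F. CPM uses the normalized library sizes, with group means over 3 libraries. The code was tested on simulated data. DESeq2 1.42.0 and limma 3.58.1 served as alternatives.

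Sites were searched in the longest GENCODE M21 3′ UTR (GRCm38) per symbol. Of 20673 symbols, 19967 matched directly, 575 through an older name and 131 did not.

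Named genes were, in the contrast, the 10 highest and 10 lowest called genes with at least 5 CPM in both cell types and no overlap of KO-minus-WT pairs, the 8 called seed-matched genes of smallest p, up to 10 opposite and 8 shared genes, 12 reported targets, up to 4 called members per list, neighbours of Mir155, and up to 6 genes near absent in 1 cell type. Predicted genes were passed over. Tlr1, Tlr9, Tirap, Il6ra, Pfkl, Slc1a5, Eprs, Cars, C1qa, C1qb, C1qc, Wars, Ppp1r15a, Atf4, Ddit3, Gclc, Gsr, Flt3 and Ccr7 were named after their values were seen. The members, the 20 gene lists and the 13 marker lists were chosen with earlier results of these data known. A few named genes are not reported here.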

Additional observations from a re-analysis of the deposited data

Results flagged for a closer look

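The KO effect differed between dendritic cells and macrophages by the edgeR test of the difference itself for 63 of the 83 named genes, and the values of 61 are given here. Values are log2 differences of KO effects, dendritic cells minus macrophages. The highest were Tmem176b (3.13), Ankrd37 (2.95), S100a4 (2.82), Gstt1 (2.51), Gpr162 (2.50), Art2a-ps (2.37), Icosl (2.19), Hpse (2.10), Stat4 (2.03), Gfpt2 (1.98), Ccl17 (1.96), Mtss1l (1.94), Stap1 (1.92) and Arl5c (1.85). Next came Pou2f2 (1.83), Palm (1.83), Ticam2 (1.79), Il15 (1.52), Mif (1.50), Rcsd1 (1.43), Peli2 (1.38), Bnip3 (1.32), Mtmr4 (1.26), Lpcat1 (1.24), Ass1 (1.20), Tnip3 (1.19), Cd83 (1.16) and Gadd45a (1.09). Smaller positive values were those of Sesn1 (1.07), Nfe2l2 (1.05), Slc16a3 (1.02), Sh2b3 (1.02), Gadd45b (0.97), Ppp1cb (0.88), Rps6ka5 (0.78), Uap1 (0.77), Ahcyl2 (0.72), Ifngr2 (0.58) and Pias1 (0.49).

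Negative values were lowest for Sgms2 (-5.41), Pira2 (-5.40), Asns (-3.83), Tg (-3.65), Phgdh (-3.11), Clec4e (-3.00), Nid1 (-2.41), Slc7a5 (-2.38), Itgb7 (-2.36), Naaa (-2.15) and Mctp1 (-1.86). They were followed by Zdhhc9 (-1.69), Slc7a11 (-1.66), Cacna1b (-1.65), Cd82 (-1.50), Zadh2 (-1.25), Itgb2 (-1.14), Shmt2 (-1.08), Jarid2 (-1.07), Tnfsf9 (-0.79), Inpp5d (-0.54) and Myd88 (-0.54). The fitted value of Sgms2, with 0 counts in all KO dendritic cell libraries, depends on the prior count and is no bound, and those of Pira2 and Ankrd37 rest on few reads in 1 group.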

How the results depend on the processing

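None of the 398 genes was called with the opposite sign under any alternative fit. DESeq2 called 807 (464 higher, 343 lower), with 52 opposite genes, 16 stress response and 10 glycolysis genes. All 24 libraries in 1 fit called 1136 (648 and 488), 2362 in dendritic cells, 1755 in macrophages, 98 opposite, 14 stress response and 13 glycolysis genes. With limma voom the counts were 2260 in dendritic cells, 392 in macrophages and 3 glycolysis genes. Each cell type fitted alone, an alternative chosen after seeing the data, gave 2279 and 95. Leaving out 1 library gave 109 to 1346 calls in the contrast, 61 to 707 higher, 48 to 639 lower, 628 to 2289 in dendritic cells, 239 to 2974 in macrophages, 8 to 150 opposite, 5 to 16 stress response and 0 to 11 glycolysis genes, and a seed-matched excess of -0.007 to 0.070. The highest count came without WT macrophage replicate 3 in each case, and its excess reversed to -0.007. The cause was not tested. By replicate number the macrophage libraries met the measure of pairing (each r over 0.1) and the dendritic cell libraries did not; with the replicate block 382 genes were called (214 and 168), 271 of them shared, with 31 opposite, and 10 called named genes lost their call. For the 63 called named genes, 263 of 756 values with a library left out and 31 of 490 under other settings missed the threshold. Depth limits genes near 1 CPM.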
